A study of Bos taurus with 40 samples.

Results

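The lysozyme family was followed through 4 tissues of cattle. Its members were taken as the genes of the count tables named LYSB or LOC781146, together with every gene whose symbol starts with LYZ. This gave 9 of the 13570 genes in the tables (LOC781146, LYSB, LYZ, LYZ1, LYZ2, LYZ3, LYZL1, LYZL4 and LYZL6), and none of the 9 was without reads over the 40 samples. LYSB and LOC781146 were picked because of their difference between bulls and cows in the pituitary gland, so their values in that comparison are a description and carry no test. The other 7 genes were picked by name alone.

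The animals were 10 Korean cattle, a beef breed, all slaughtered at an age above 22 months, and RNA was sequenced from their liver, abdominal fat, pituitary gland and a back muscle (longissimus dorsi). There were 5 cows and 5 bulls, each animal gave 1 library of each tissue, and the labels name no treatment. The study asked which genes differ between the sexes in each tissue. Read counts per gene were scaled to library size (CPM) with TMM factors over all 40 samples, and CPM values are given as mean ± SD.

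Lysozymes are secreted enzymes that cut the sugar backbone of bacterial cell walls. Macrophages, granulocytes and the epithelia of glands, airways and milk ducts make them, and they belong to the front line of innate defence. Ruminants carry an enlarged group of lysozyme genes side by side on 1 chromosome, and some of these copies work as digestive enzymes in the true stomach, where they open the bacteria that arrive from the rumen. The lysozyme-like (LYZL) genes lie elsewhere in the genome and are best known from the testis and sperm.

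By the RefSeq genes of assembly ARS-UCD2.0, LOC781146, LYSB, LYZ2, LYZ3 and LYZ lie in this order, with other loci between some of them, within a single lysozyme cluster on chromosome 5. LYZL1 lies on chromosome 13, LYZL6 on chromosome 19 and LYZL4 on chromosome 22. None of these 8 genes overlaps another RefSeq gene. The symbol LYZ1 is no longer in use there and is a synonym of 2 loci of the cluster, LOC281287 and LOC781349, and LYZ is likewise also a synonym of LOC781349, so that the locus behind both rows is uncertain. The reads had been aligned to the older bosTau7 assembly. The authors counted only reads that align to a single place, and the genes of the cluster are related copies, so the level of every gene of the cluster is uncertain and may be too low.

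The depth on genes was 5173092 to 19165864 reads per library (median 10005607). A level of 3 reads, taken as the smallest a sample can show, equals 0.132 to 0.793 CPM on the scale used here, an allowance for counting error only. For 16 of 16 tissue markers the mean was highest in the labelled tissue, and for 15 every sample of that tissue was above all others. The exception was the liver marker APOA1, which reached 337 CPM in the fat of bull 5 against 43.2 to 289 CPM in liver. A pair of libraries went against their labels or stood apart. The liver labelled bull 3 had 1401 CPM of XIST, the RNA of the silenced X chromosome in females, and no read on the Y-linked genes DDX3Y, USP9Y and ZFY, and its profile was closest to the liver of cow 4 (r = 0.992). The fat labelled bull 5 had 1.78 CPM of USP9Y against 28.1 to 34.1 CPM in the fat of the other bulls. Its XIST was 1.39 CPM, against 0.0841 to 0.724 CPM in the other bulls and 316 to 981 CPM in the fat of cows. It thus lacked the XIST level of cows. Each logFC between the sexes named for a member in liver or fat is therefore also given without these libraries. Between tissues, leaving out either library changed the call of no member in the 96 values recomputed.

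In the pituitary gland, LOC781146 and LYSB were higher in each bull than in any cow. LYZ3 was also higher in bulls, by a call that did not hold in every test. LYZL6 and LYZ were read in every animal of both sexes there. The difference between the sexes was tested in M1, an edgeR model with sex as its only term fitted to the 10 samples of the tissue, with the likelihood ratio test (LRT) and Benjamini-Hochberg (FDR) adjustment over 13148 genes. FDR adjusted p-values between the sexes are from this test unless another is named. M1 is the study's name for this model. It was refitted here, and the number of genes found differs from the study's own number in each tissue. In the pituitary gland 98 genes, or 0.745% of those tested, were sexually dimorphic at an adjusted p under 0.05, and 73 of them (0.555%) were higher in bulls. Among the 7 members chosen by name, 1 passed, LYZ3, and 3 had an unadjusted p under 0.05 (LYZ, LYZ2 and LYZ3), against 9.27% of all genes. The quasi-likelihood test of edgeR, which called 0.0913% of all genes, and DESeq2 called 0 of the 7.

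LOC781146 had 0, 17, 4, 0 and 1 reads in the pituitary glands of cows 1 to 5 and 172, 103, 321, 250 and 70 reads in those of bulls 1 to 5. The lowest bull was well above the highest cow, and cow 2 stood apart from the other cows. In CPM this was 0.272 ± 0.425 in cows and 11.8 ± 8.10 in bulls (n = 5 each), a log2 fold change from cow to bull (logFC) of 5.39 (standard error, SE, 0.741). With cow 2 left out it was 6.96. Every bull was above every cow in 0.852% of all genes tested in this tissue.

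LYSB, another gene of the cluster, had 1, 2, 0, 0 and 1 reads in cows and 22, 33, 47, 55 and 8 reads in bulls. Again the sexes did not overlap, although bull 5 was far below the other bulls. The means were 0.0499 ± 0.0503 CPM and 2.0 ± 1.12 CPM (logFC 5.05, SE 0.885), and every cow was below the level of 3 reads. The reads of LOC781146 and LYSB kept a ratio of 3.12 to 8.75 across the 5 bulls. Over the 10 pituitary glands their log2(CPM + 0.5) values had a Pearson r of 0.958, a value over points that share the sex difference that chose both genes.

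LYZ3, which carries the name of a stomach lysozyme, had 3, 26, 1, 0 and 0 reads in cows and 30, 14, 371, 61 and 54 reads in bulls. Cow 2 was above bull 2, so the sexes overlapped, and bull 3 alone held most of the reads of this gene. The means were 0.359 ± 0.660 CPM in cows and 7.53 ± 11.7 CPM in bulls, a logFC of 4.39 (SE 1.06, FDR adjusted p = 0.0352). The call depended on the test and on single animals. The adjusted p was 0.242 with edgeR's quasi-likelihood test, 0.113 with DESeq2 and 0.0647 with library sizes alone in place of TMM factors. Without bull 3 the logFC was 2.66 (LRT adjusted p = 0.276), and without cow 2 it was 6.68 (6.18e-05). Without cow 1, cow 3 or cow 4 the adjusted p was 0.148, 0.158 and 0.0588.

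Cow 2 had the most reads of LOC781146, LYSB and LYZ3 among the cows, and bull 3 had the highest CPM of all 3 genes among the bulls. The genes did not keep a fixed ratio, however. There were 0.136 to 0.244 reads of LYZ3 per read of LOC781146 in bulls 1, 2 and 4, against 1.16 in bull 3 and 0.771 in bull 5.

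**Figure D1:**
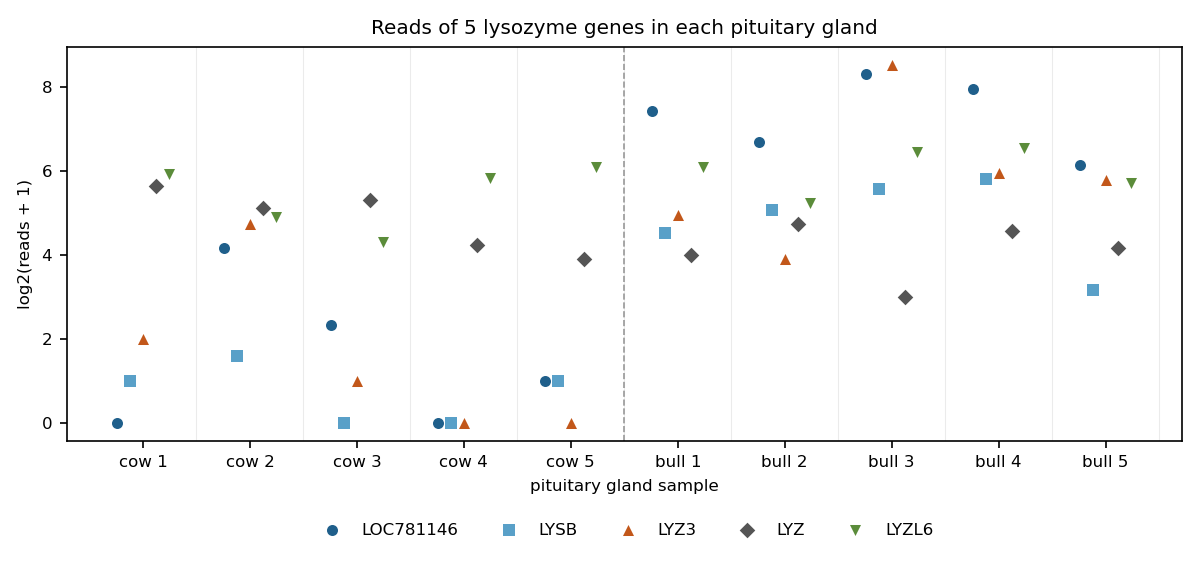
Reads of 5 lysozyme genes in the pituitary gland of each of 5 cows and 5 bulls, drawn as log2(reads + 1), with 1 marker per gene and animal and a dashed line between the sexes. LOC781146 and LYSB are higher in each bull than in any cow, LYZ3 overlaps because cow 2 has 26 reads and bull 2 has 14, and LYZ and LYZL6 are read in all 10 animals.

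LYZ, which has the symbol of the macrophage lysozyme of other mammals, had 49, 34, 39, 18 and 14 reads in the pituitary glands of cows and 15, 26, 7, 23 and 17 reads in those of bulls. The values lay in the other direction, with 2.06 ± 0.909 CPM in cows and 1.04 ± 0.302 CPM in bulls, but the sexes overlapped and the difference did not pass (logFC -0.98, SE 0.406, FDR adjusted p = 0.363). Summed over 16 macrophage markers, cows had 316 to 521 CPM and bulls 226 to 449 CPM. Of the 16, 1 passed, CYBB, which was lower in bulls (20 ± 7.01 against 10.2 ± 1.99 CPM, FDR adjusted p = 0.0441, quasi-likelihood adjusted p = 0.242). The median logFC of the list was -0.43, 4 of the 16 had an unadjusted p under 0.05, and no marker was at 0 in either sex. The part of these cells in the LYZ values was not tested, apart from a correlation over animals given at the end. In tissue samples fewer cells of a type and less RNA per cell cannot be told apart.

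LYZ2, a second stomach lysozyme by name, had 7, 3, 9, 0 and 4 reads in cows and 3, 1, 1, 0 and 0 reads in bulls, which overlapped and did not pass (logFC -2.12, SE 0.934, FDR adjusted p = 0.341). LYZL6 was measured at 60, 29, 19, 56 and 68 reads in cows and 68, 37, 87, 93 and 52 reads in bulls. Its means of 3.18 ± 1.53 and 4.30 ± 1.85 CPM differed by less than the spread among animals (logFC 0.43, SE 0.427, FDR adjusted p = 0.751). LYZ1 had 1 read in each of 3 bulls and 0 in the cows, and LYZL1 and LYZL4 had no read in any pituitary gland.

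The genes around the cluster were examined next. Of the 5 nearest genes of the tables on either side, YEATS4, MIR2427, CCT2, LRRC10 and RAB3IP before it and CPSF6, MDM2, SLC35E3, RAP1B and IL22 after it, 9 were tested and IL22 had no read. In each of the 4 tissues, 0 of the 9 passed between the sexes with the edgeR LRT or the quasi-likelihood test, and an unadjusted p under 0.05 was reached by 1 of the 9 in the pituitary gland and 0 elsewhere. In the pituitary gland their adjusted p was 0.260 or more, and the gene directly before the cluster, YEATS4, had a logFC of 0.28 while the gene directly after it, CPSF6, had -0.37.

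Several secreted defence proteins were examined beside the lysozymes. Of 28 antimicrobial genes tested in the pituitary gland, 1 was higher and 0 were lower in bulls, with a median logFC of 0.28 against 0 over all genes. The gene that passed was BPIFB1, which encodes a secreted protein of airway and mouth epithelia. It had 1 or 2 reads in each cow and 36, 31, 4, 23 and 211 reads in bulls 1 to 5 (logFC 5.07, FDR adjusted p = 6.87e-05, quasi-likelihood adjusted p = 0.0862). Bull 3, the highest bull for LOC781146 and LYZ3, was the lowest bull for BPIFB1. LTF, which encodes lactoferrin, ranged from 2.50 to 8.66 CPM in cows and from 1.70 to 12.2 CPM in bulls.

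Of 10 markers of lining epithelium, 1 was higher in bulls in the pituitary gland and 0 were lower. This was PIGR, the receptor that carries antibodies across epithelia, at 1.10 ± 0.404 CPM in cows and 5.14 ± 4.76 CPM in bulls (logFC 2.21, FDR adjusted p = 0.0352, quasi-likelihood adjusted p = 0.248). Bull 3 was again the lowest bull, with 11 reads. The summed level of the 10 markers was 75.2 to 244 CPM in cows and 135 to 366 CPM in bulls, with no marker at 0 in either sex. The summed level of 5 ruminant stomach markers was at most 0.189 CPM in any pituitary gland, with 2 of the 5 at 0 in cows and 2 in bulls. Of 7 neutrophil markers 0 passed, also at an unadjusted p under 0.05, and their sum was 1.16 to 7.25 CPM in cows and 1.92 to 9.54 CPM in bulls.

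A marker of muscle and a marker of the pituitary cells themselves also passed in this tissue. Of 4 muscle markers 1 was higher in bulls, MYH7, which encodes a slow muscle myosin, at 6.78 ± 1.05 CPM in cows and 15.4 ± 5.79 CPM in bulls (FDR adjusted p = 0.00837, quasi-likelihood adjusted p = 0.146), and 4 of 4 had an unadjusted p under 0.05. Their summed level was 8.99 to 23.9 CPM in cows and 16.8 to 51.8 CPM in bulls, with none at 0. Of 5 pituitary markers 1 was higher in bulls, CGA, the alpha subunit shared by gonadotropins and thyrotropin, at 2446 ± 668 CPM in cows and 8741 ± 5150 CPM in bulls (FDR adjusted p = 0.0125, quasi-likelihood adjusted p = 0.242), and 2 of 5 had an unadjusted p under 0.05. Bull 5, the lowest bull for LOC781146 and LYSB by reads, was the lowest for CGA, at 1465 CPM, and within the range of the cows. The 5 pituitary markers summed to 81584 to 265293 CPM in cows and 143559 to 284474 CPM in bulls. Of 4 liver markers 0 passed and 2 had an unadjusted p under 0.05, and of 3 fat markers 0 did. The part of these cell types in the pituitary values was not tested.

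In fat, LYSB and LYZ3 pointed the same way as in the pituitary gland, without passing the test over all 10 samples. M1 found 15 sexually dimorphic genes in fat (0.114% of those tested), and 0 of the 9 members were among them. An unadjusted p under 0.05 was reached by 3 members (LYSB, LYZ and LYZ3), against 6.88% of all genes. The quasi-likelihood test (0.0228% of all genes) and DESeq2 also called 0 members. Without the fat of bull 5, M1 found 18 of 13148 genes, of which 1 was a member, LYSB. That fit was made with the LRT alone. LYSB had 2, 1, 2, 2 and 1 reads in the fat of cows and 9, 12, 17, 4 and 1 reads in that of bulls. The bull without an excess was bull 5, whose fat stood apart in USP9Y. The means were 0.105 ± 0.0384 and 0.690 ± 0.563 CPM (logFC 2.60, SE 0.828, FDR adjusted p = 0.305, quasi-likelihood adjusted p = 0.813). Without the fat of bull 5 the logFC was 2.89, the other bulls were all above the cows, and the adjusted p was 0.0443. Leaving out 1 animal at a time, the LRT adjusted p of LYSB ranged from 0.0443 to 0.710.

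LYZ3 in fat had 3, 5, 4, 2 and 1 reads in cows and 1, 10, 10, 15 and 14 reads in bulls, so that bull 1 was within the range of the cows. Its logFC was 1.92 (SE 0.71, FDR adjusted p = 0.435), and 1.78 without the fat of bull 5 (0.493). LYZ had 373, 129, 156, 36 and 34 reads in cows and 297, 621, 60, 571 and 132 reads in bulls, which overlapped widely (logFC 1.48, SE 0.662, FDR adjusted p = 0.667, and logFC 1.68 without the fat of bull 5). For LYZ2 the logFC was 0.33 (SE 0.691), and 0.52 without the fat of bull 5. Of 7 neutrophil markers 0 passed, while 6 had an unadjusted p under 0.05, and their median logFC was 2.40 against -0.06 over all genes. Their summed level was 19.4 to 56.1 CPM in cows and 22.3 to 565 CPM in bulls, with 1 marker at 0 in cows, and the highest value was that of bull 5. Without bull 5 the bulls reached 278 CPM, the median logFC was 1.71 against -0.09, 5 of the 7 had an unadjusted p under 0.05 and 0 passed. Of the 28 antimicrobial genes 0 passed and 6 had an unadjusted p under 0.05, or 0 and 5 without bull 5. S100A8, S100A9 and S100A12 are in both this list and the neutrophil list, so the counts are not separate. The 16 macrophage markers, with 0 passing and 0 at an unadjusted p under 0.05, summed to 1096 to 2866 CPM in cows and 1359 to 2823 CPM in bulls. The part of these cells in the fat values was not tested, apart from a correlation of LYZ with the macrophage markers given at the end.

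In liver and muscle, no member passed the test between the sexes. M1 found 23 sexually dimorphic genes in liver (0.175%), or 61 without the liver of bull 3, and 68 in muscle (0.517%), and 0 of the 9 members were among them in either tissue. An unadjusted p under 0.05 was reached by 0 members, against 7.45% of all genes in liver and 11.0% in muscle. The quasi-likelihood test, which called 0.00761% and 0.0532% of all genes, and DESeq2 likewise called 0 members. In liver 7 of the 9 members stayed below 3 reads in every sample, and in muscle 6, so that a difference in these was not detectable at this depth. LYSB had no read in any liver, and LOC781146 had no read in any muscle and 1 read in all livers together.

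LYZ was the member with enough reads in these tissues. In liver it had 45.1, 9.70, 38.8, 8.85 and 7.25 CPM in cows and 10.9, 37.4, 12.9, 30.7 and 7.84 CPM in bulls. Some animals of each sex were high and the sexes fully overlapped (logFC -0.08, SE 0.546, FDR adjusted p = 1, and logFC 0.02 without the liver of bull 3). In muscle it had 14.3, 6.31, 29.2, 2.22 and 1.71 CPM in cows and 3.30, 2.62, 1.59, 12.1 and 1.52 CPM in bulls. Cow 3 and bull 4 were the highest of their sex, and the difference did not pass (logFC -1.36, SE 0.733, FDR adjusted p = 0.508). Without cow 3 the logFC was -0.56, and without bull 4 it was -2.27. Summed macrophage markers in muscle were 373 to 832 CPM in cows and 166 to 511 CPM in bulls, with none of the 16 at 0. CD14 of that list was lower in bulls (19.6 ± 2.69 against 7.42 ± 3.57 CPM, FDR adjusted p = 0.0233, quasi-likelihood adjusted p = 0.244). Of the 16 markers, 14 had an unadjusted p under 0.05, and the median logFC of the list was -1.07 against -0.04 over all genes. The part of macrophages in the LYZ values was not tested, apart from a correlation over animals given at the end. LYZ2 in liver had a logFC of -1.38 (SE 0.901), or -1.19 without the liver of bull 3, with 1 to 8 reads in cows and 0 to 3 in bulls.

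Whether the effect of sex differed among liver, fat and muscle was tested as an interaction over the 30 samples of these tissues, first without a term for the animal, although the same 10 animals gave all 3 tissues. The LRT called 16 of 13148 genes (0.122%) and 0 of the 9 members. LYZ had the smallest p of the members, with an adjusted p of 0.724, or 0.714 without the liver of bull 3. The quasi-likelihood test called 0 genes, where 758 (5.77%) had an unadjusted LRT p under 0.05. With the animal as a block, a fit added after the data had been seen, the LRT called 19 genes (0.145%), of which 1 was a member, LYZ (adjusted p = 0.0153), whose logFC was -0.08 in liver, 1.48 in fat and -1.36 in muscle. The quasi-likelihood test with the same block called 0 genes (634 had an unadjusted p under 0.05), with an adjusted p of 0.388 for LYZ. The LRT call with the block was also made without the liver of bull 3 (adjusted p = 0.0060) and without the fat of bull 5 (0.0310). It was not made without cow 1 (0.10), cow 3 (0.177), bull 1 (0.0843) or bull 2 (0.0821). The pituitary gland was left out of this test because its sex difference had chosen LYSB and LOC781146.

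**Figure D2:**
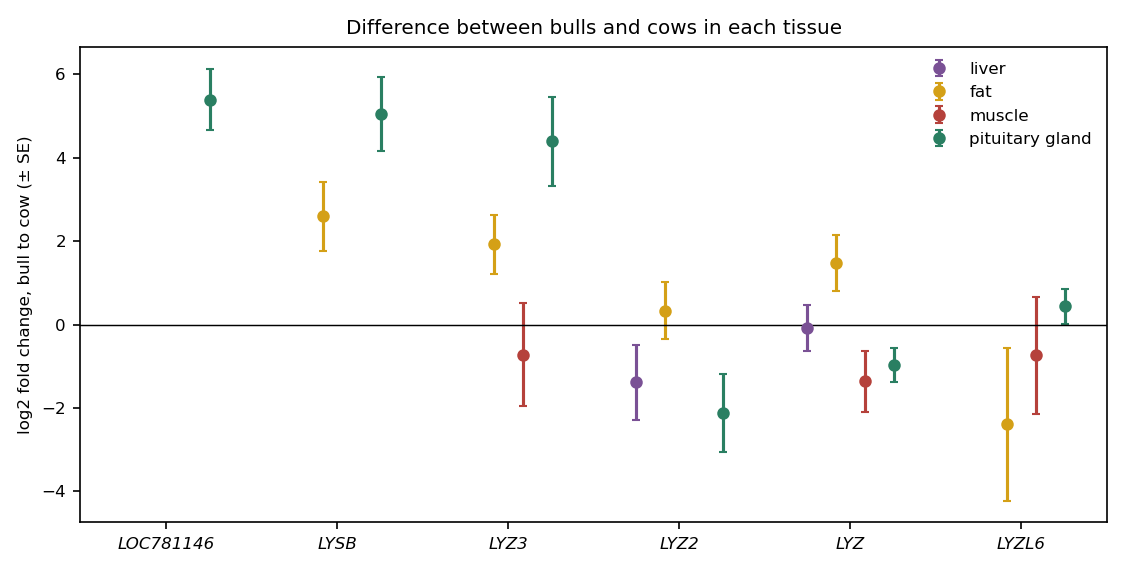
Log2 fold change from cow to bull of 6 lysozyme genes in each tissue, as points with bars of 1 SE from the edgeR model, n = 5 animals per sex. A tissue is left out where a gene had no read in one sex or fewer than 3 reads in every sample; the pituitary values of LOC781146 and LYSB are those that chose these genes, and LYZ3 in the pituitary gland, at 4.39, is the tested value that passed with the LRT.

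Across tissues the members fell into separate patterns. LYZ was higher in liver and fat than in muscle and lowest in the pituitary gland. LYZL6, LYZ3, LOC781146 and LYSB had their highest mean over both sexes in the pituitary gland. For LYSB this did not hold in cows, whose mean was 0.0499 CPM there and 0.105 CPM in fat. LYZ2 and LYZL1 had their highest mean in fat, and LYZ1 and LYZL4 were close to absent from all tissues. Tissues were compared with edgeR's quasi-likelihood test over all 40 samples with the animal as a block, in 6 pairs. Most genes differ between these tissues, with 60.6 to 65.6% of all genes called per pair, so a call of a member is not unusual. Of the members tested, 5 of 9 were called between liver and fat (64.8% of all genes), 3 of 9 between liver and muscle (62.7%), 3 of 7 between liver and pituitary gland (65.3%), 4 of 9 between fat and muscle (60.6%), 5 of 7 between fat and pituitary gland (65.6%) and 3 of 7 between muscle and pituitary gland (65.1%).

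**Figure D3:**
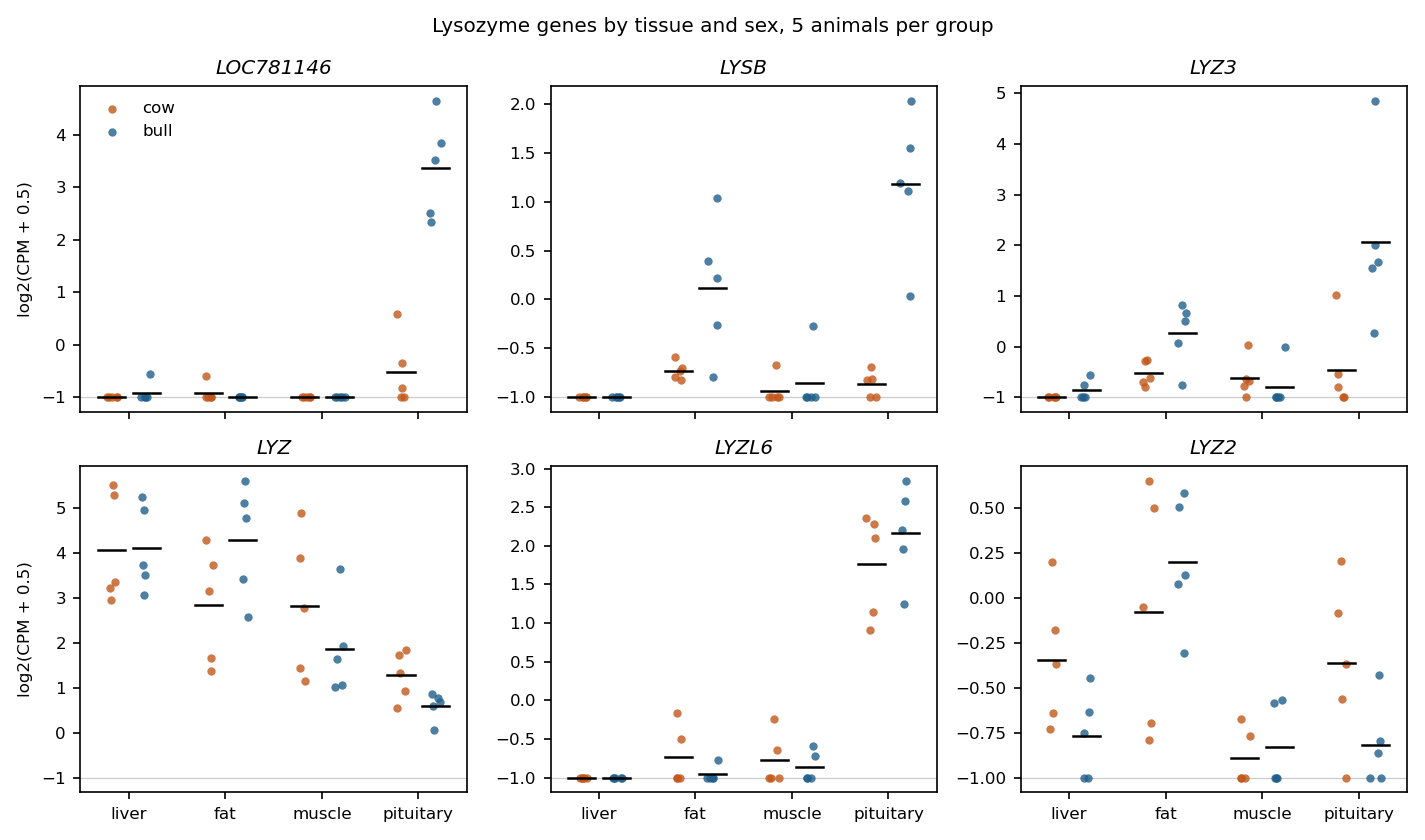
Levels of 6 lysozyme genes in 4 tissues as log2(CPM + 0.5), with 1 point per animal, cows and bulls side by side, and a bar at the mean of the 5 animals. A grey line at -1 marks samples without a read. LYZ falls from liver and fat to the pituitary gland, LYZL6 is high in all 10 pituitary glands, and LOC781146 is above the level of 3 reads in the pituitary gland alone. The scale differs between panels.

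The livers held 7.25 to 45.1 CPM of LYZ (median 11.9) and the fat samples 2.09 to 48.0 CPM (median 11.5), over 10 animals each. Muscle had 1.52 to 29.2 CPM (median 2.96), and the pituitary gland 0.535 to 3.09 CPM (median 1.26). Liver and fat, the highest in order, did not differ beyond the spread (log2 difference 0.36, SE 0.349, quasi-likelihood adjusted p = 0.392), and with library sizes alone the difference was -0.35. Liver was above muscle in 10 of 10 animals (log2 difference 1.73, SE 0.358, adjusted p = 0.000121), and fat was above muscle in 8 of 10 (1.38, SE 0.357, adjusted p = 0.00203). The pituitary gland was below muscle in 10 of 10 animals (log2 difference of muscle over pituitary gland 1.80, SE 0.371, adjusted p = 0.000152) and below liver by 3.53 on the log2 scale (adjusted p = 1.23e-09). With library sizes alone, the difference of muscle over pituitary gland was 0.87 with an adjusted p of 0.0540. That scaling moved the median log2 difference of all genes, muscle over pituitary gland, from -0.06 to -0.93.

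Most macrophage markers were likewise higher in liver and fat than in muscle and pituitary gland, but muscle and pituitary gland were not set apart by them. Between fat and muscle, 15 of 16 were higher in fat (33.2% of all genes) and 0 were lower. The same count held for liver over muscle (28.7%), liver over pituitary gland (29.4%) and fat over pituitary gland (31.4%). Between muscle and pituitary gland 1 was higher and 1 was lower. Their part in the LYZ levels was not tested. The genes whose pattern over the 40 samples was most like that of LYZ were SLAMF7 (Pearson r = 0.883), SPN (0.879), LAPTM5 (0.875), MPEG1 (0.863) and ARHGAP15 (0.861). These are genes of white blood cells, among them MPEG1, which encodes a pore-forming protein of macrophages, and SPN, which encodes a surface protein of leukocytes.

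**Figure D4:**
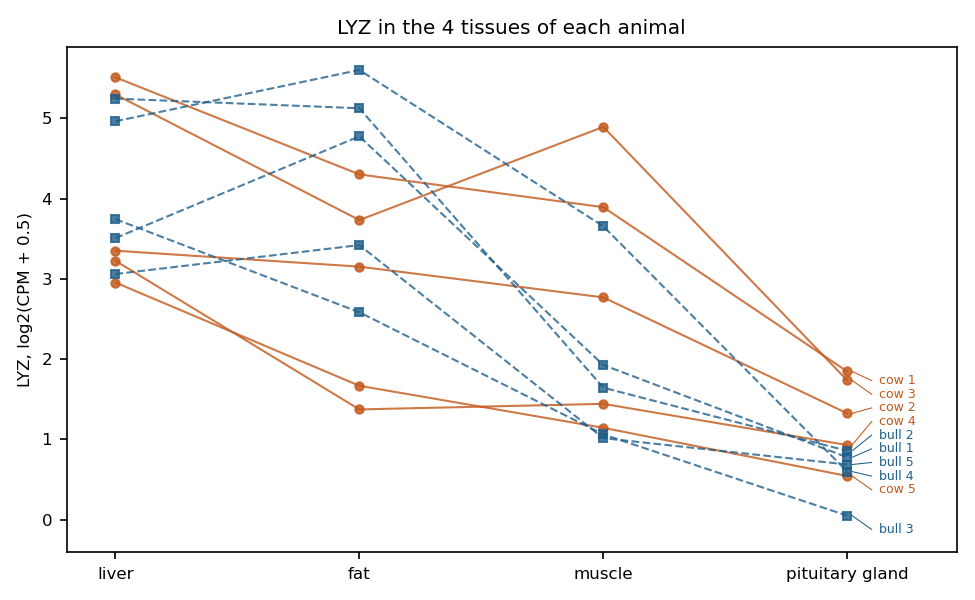
LYZ in liver, fat, muscle and pituitary gland as log2(CPM + 0.5), with the 4 samples of each animal joined by a line, solid with circles for cows and dashed with squares for bulls. The pituitary gland is the lowest tissue in each of the 10 animals, and in fat cow 4 and cow 5 lie low and bull 4 high, with 2.09, 2.68 and 48.0 CPM.

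LYZL6 was read chiefly in the pituitary gland. It had 19 to 93 reads (median 58) in the 10 pituitary glands, no read in any liver, at most 6 reads in a fat sample and at most 4 in a muscle sample. Each pituitary gland was above all samples of the other tissues, with a mean of 3.74 ± 1.71 CPM against 0.0680 ± 0.131 in fat and 0.0754 ± 0.116 in muscle. The log2 difference was 5.81 from fat (SE 0.826, quasi-likelihood adjusted p = 2.53e-09) and 5.5 from muscle (SE 0.905, adjusted p = 2.11e-08). Against liver, whose 10 samples together would show 3 reads as 0.0346 CPM, it was at least 104-fold higher (adjusted p = 7.50e-10). Its nearest patterns over the 40 samples were those of LY6H (Pearson r = 0.979), KLHDC8A (0.971), NKX2-2 (0.970), STRA6 (0.967) and RPH3A (0.967). NKX2-2 is a transcription factor of the nervous and endocrine systems, and RPH3A encodes a protein of vesicle release. These correlations run over 4 tissues and largely restate that the genes share their highest tissue.

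LYZ3 had 0 to 371 reads in the pituitary glands (median 20), 1 to 15 in fat, 0 to 4 in muscle and 0 or 1 in liver. The pituitary mean of 3.95 ± 8.66 CPM rests on bulls, and 2 cows had no read. It was higher in the pituitary gland than in muscle by 3.27 on the log2 scale (SE 0.849, quasi-likelihood adjusted p = 0.000590) and than in liver by 5.88 (SE 1.28, adjusted p = 2.69e-06). Against fat the difference was 1.67 (adjusted p = 0.0221), with 7 of 10 animals higher in the pituitary gland. It did not pass without bull 3 (1.09, adjusted p = 0.124), without bull 1 (adjusted p = 0.0789), without cow 2 (0.0505) or with the LRT (0.0696). Fat was above liver in 10 of 10 animals (4.20, SE 1.29, adjusted p = 0.000814).

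LOC781146 and LYSB differed in how far they were restricted to the pituitary gland, which is given without a test. LOC781146 had 938 of its 941 reads there, with 2 reads in fat, 1 in liver and 0 in muscle. With the reads of all animals pooled, its ratio of pituitary gland to fat was 423, with a 95% exact counting interval of 117 to 3494. That interval covers counting error alone and not the spread among animals. In the edgeR model with the animal as a block the log2 difference was 7.22 (SE 1.43). Pooled in the same way, LOC781146 was at least 146-fold above muscle. LYSB had 169 of its 223 reads in the pituitary gland, 51 in fat, 3 in muscle and 0 in liver. Its mean was 1.02 CPM in the pituitary gland and 0.398 in fat, and 6 of 10 animals were higher in the pituitary gland. These were the bulls and cow 2. The other cows were higher in fat, and every cow had fewer than 3 reads in either tissue.

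Without the pituitary gland, LYSB could be tested. It was higher in fat than in muscle in 10 of 10 animals (log2 difference 2.78, SE 0.95, quasi-likelihood adjusted p = 0.00352), and at least 10.4-fold higher than in liver (adjusted p = 4.30e-05), where no animal had a read. By the mean over both sexes, fat was thus the second tissue of LYSB, at 1 to 17 reads per sample. In cows its mean was highest in fat.

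Among genes outside the family, the nearest patterns to LOC781146 over the 40 samples were GPHA2 (Pearson r = 0.894), TEKT4 (0.860) and LRFN2 (0.856), which are all highest in the pituitary gland. GPHA2, a hormone subunit related to that of the gonadotropins, was also the nearest such gene to LYSB (0.721), while LYSB had higher values with LOC781146 (0.813) and LYZ3 (0.799). The level of GPHA2 was 0.296 CPM in the pituitary glands of cows and 0.983 CPM in those of bulls. Over the 10 pituitary glands alone the gene nearest to LOC781146 was MYL4 (0.951), which encodes a light chain of myosin and had 2 to 6 reads in cows and 7 to 17 in bulls. USP9Y (0.924) and ZFY (0.911), next in order, lie on the Y chromosome and separate the sexes by themselves. LOC781146 and LYSB were chosen for their sex difference in the pituitary gland. Genes sought for likeness to them tend to share that tissue and that difference, so the values of GPHA2 and MYL4 are a description only.

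LYZ2 was highest in fat, with 1 to 14 reads per sample and 0.60 ± 0.362 CPM. It was above muscle in 10 of 10 animals (log2 difference 3.34, SE 0.855, quasi-likelihood adjusted p = 5.27e-05), above the pituitary gland in 9 of 10 (1.87, SE 0.518, adjusted p = 0.00122) and above liver in 7 of 10 (1.53, SE 0.553, adjusted p = 0.0118). Liver and pituitary gland, next in order, did not differ beyond the spread (log2 difference 0.34, SE 0.606, and -0.45 with library sizes alone). Liver was above muscle with an adjusted p of 0.0382, which reached 0.150 without cow 1 and was 0.0632, 0.0621 and 0.0662 without cow 3, cow 4 and cow 5.

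LYZL1, a lysozyme-like gene of the testis, had 29 of its 30 reads in fat, where 9 of 10 animals had at least 1 read and bull 5 had the most, 10. It was at least 5.0-fold higher there than in muscle (quasi-likelihood adjusted p = 0.000744) and at least 10.7-fold higher than in the pituitary gland (adjusted p = 6.82e-05). Against liver, with 1 read, the ratio was 17.7 with a 95% counting interval of 2.94 to 723, which leaves out the spread among animals. DESeq2 did not call these differences (adjusted p = 0.32, 0.157 and 0.354). LYZ1 had 12 reads in all and LYZL4 had 5, neither with 3 reads in any sample, and no statement on their levels is possible beyond that.

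More distant relatives were low in all tissues. LALBA, the lysozyme relative that works in milk sugar synthesis, had at most 3 reads in any sample, and SPACA5, a sperm protein, had at most 2. SPACA3, another sperm protein, was read in liver alone, with up to 18 reads in cows (0.701 ± 0.731 CPM) and up to 3 in bulls (0.152 ± 0.101 CPM). LYG2, a lysozyme of the goose type, had its highest means in the pituitary gland, at 0.375 ± 0.233 CPM in cows and 0.502 ± 0.365 CPM in bulls. Of these 4 relatives 0 passed between the sexes in any tissue with the edgeR LRT or the quasi-likelihood test, and 1 had an unadjusted p under 0.05 in liver.

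In liver, 1 of the 28 antimicrobial genes was lower in bulls and 0 were higher. LPO, a peroxidase of milk and saliva, had 0.137 to 3.16 CPM in cows and no read in any bull's liver (FDR adjusted p = 0.00925, quasi-likelihood adjusted p = 0.583). Without the liver of bull 3, LPO still passed (adjusted p = 0.0128) and CATHL1, a cathelicidin, and PGLYRP1, which binds bacterial cell walls, also passed (adjusted p = 0.0161 and 0.0348). Both calls rest on bull 4, which had 80 of 83 reads of CATHL1 and 64 of 65 reads of PGLYRP1 in liver, while no cow had a read. The quasi-likelihood test called 0 of the 28 in liver. An unadjusted LRT p under 0.05 was reached by 11 of the 28, against 7.45% of all genes. Without the liver of bull 3 it was again 11, against 6.58% of all genes. CATHL2 to CATHL6 also had their highest liver level in bull 4, at 48, 25, 14, 9 and 4 reads, with at most 1 read in any cow. Their share of the 11 was not counted. In muscle 0 of the 28 passed and 4 had an unadjusted p under 0.05, against 11.0% of all genes.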

How the data were processed

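The authors removed adapters with Trimmomatic, aligned the read pairs to bosTau7 with Bowtie2 within TopHat2, and counted uniquely aligned reads on UCSC genes with HTSeq. Counting mode and strand are not given in the sources used here. They deposited raw counts per gene and sample, without normalization or pooling. A row without a gene name (0.114 to 2.69% of reads) was left out, and 33.2 to 54.0% of unique reads lay outside genes. Tests covered the 13148 genes that had a read in any sample.

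The members, gene lists and tests were chosen with earlier results of these data known. Sex was tested per tissue with edgeR 4.0.16 in R 4.3.3 (TMM factors, glmLRT, prior count 0.125), and tissue pairs with glmQLFTest and the animal as a block, since the labels' titles give each animal's 4 tissues. P-values were Benjamini-Hochberg adjusted within each comparison, with a threshold of 0.05. Standard errors came from the negative binomial fit. Likeness was Pearson's r of log2(CPM + 0.5), for members with a mean of at least 1 CPM in a tissue and sex group, against all genes tested that are not members. A fold against a group without reads used a floor of 3 reads over that group. Alternatives were the other edgeR test, DESeq2 1.42.0, RLE factors, library sizes alone, filterByExpr, no block, leaving out each animal, and, added after seeing the data, the animal as a block in the interaction of sex and tissue and fits without the fat of bull 5. Sex and tissue fits were tested on simulated counts. Named genes were all members, the 5 most alike, the 5 neighbours on each side, and listed genes that passed. Figures were drawn with matplotlib 3.10.9.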

Additional observations from a re-analysis of the deposited data

Results flagged for a closer look

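Among 30 groups of 5 samples in which a member reached at least 3 reads in a sample, 6 had a sample far from the others, where its gap to the nearest exceeded 0.71 of the group's range. The limit of 0.71 is passed by about 1 of 20 groups of normally distributed values. CPM values of low counts are not such values, so no rate by chance is known for these groups. LOC781146 in the pituitary gland of cow 2 was at 1.0 CPM against 0 to 0.290 in the other cows. LYZ3 in the pituitary gland of cow 2 was at 1.53 CPM against 0 to 0.189 in the other cows. LYZ3 in the pituitary gland of bull 3 was at 28.3 CPM against 0.706 to 3.52 in the other bulls. LYZ in the muscle of bull 4 was at 12.1 CPM against 1.52 to 3.30 in the other bulls. LYZ3 in muscle was at 0.526 CPM in cow 5 against 0 to 0.138, and at 0.497 CPM in bull 4 against no read in the other bulls, which rest on 4 and 3 reads.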

How the results depend on the processing

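The number of genes called by sex moved with the test. In liver it was 23, with 1 by the quasi-likelihood test and 13 with filterByExpr. In fat it was 15, with 3, 30 and 6 by the quasi-likelihood test, DESeq2 and filterByExpr. In muscle it was 68, with 7 by the quasi-likelihood test, and in pituitary gland 98, with 12 by that test and 56 with library sizes alone. The interaction called 16 genes and 0 by the quasi-likelihood test. With the animal as a block it called 19, with 0 by the quasi-likelihood test, 30 without the liver of bull 3 and 45 without the fat of bull 5, and LYZ was the 1 member called except by the quasi-likelihood test (0). Of the tested members in pituitary gland, LYZ3 was called in M1, and 0 were called by the quasi-likelihood test, DESeq2 and library sizes alone. Between tissues, the members called were 1 (filterByExpr) and 3 (DESeq2) in place of 5 for liver and fat, 5 (LRT) and 1 (DESeq2) in place of 3 for liver and muscle, 1 (filterByExpr) in place of 4 for fat and muscle, and 2 (filterByExpr) in place of 5 for fat and pituitary gland. That filter removes members with few reads, so it left fewer members to test. The share of all genes called is not given for these settings, nor for DESeq2 between the sexes. These member counts therefore cannot be set against it. The cause of the other changes was not tested.

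Leaving out each animal gave 10 to 187 genes in liver, 5 to 22 in fat, 25 to 553 in muscle, 54 to 231 in pituitary gland and, with and without the block, 0 to 140 for the interaction. With the block it was 9 without cow 3 and 35 without cow 5. The highest counts came without cow 4 in liver (187), muscle (553) and the interaction (140 with the block, 100 without it), and without cow 5 in pituitary gland (231). The members called ranged from 0 to 1 in fat, where LYSB passed without bull 5, from 0 to 1 in pituitary gland and from 0 to 1 in the interaction with the block.

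Without the animal as a block the tissue pairs called 7804 to 8476 genes, and the only member whose call changed was LYZL4, called between liver and pituitary gland at an adjusted p of 0.0238 without the block and 0.143 with it. No paired analysis was possible between the sexes, because the labels pair no cow with a bull.

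Of 849 recomputed values of single members, 802 kept their direction and their side of the threshold, 27 lost their call, 7 gained one, 2 without a test moved and 11 changed sign. None of these 11 was called. The 7 gains do not include those of LYZL4 without the block and of LYZ in the interaction with the block, given above. Leaving out 1 animal at a time, the logFC ranged from -0.46 to 0.31 for LYZ in liver, from -0.23 (without bull 5) to 1.19 for LYZL1 in fat, from -1.29 to 0.59 (without cow 2) for LYZL6 in muscle and from -3.50 to 0.082 (without cow 5) for LYZ3 in muscle. Library sizes alone turned LYZ between liver and fat (-0.35), LYZ2 between liver and pituitary gland (-0.45) and LYZL6 between fat and muscle (0.34). Depth limits LYZ1 and LYZL4, which never reached 3 reads.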

Other observations

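The rank of an animal in LYZ was compared between its tissues after the values had been seen. Over the 10 animals, log2(CPM + 0.5) of LYZ had a Pearson r of 0.761 between muscle and pituitary gland (Spearman rho 0.697), 0.738 between liver and muscle (0.733) and 0.676 between liver and fat (0.636), while the other 3 pairs gave 0.184 to 0.521. In permutation tests with 100000 resamples, two-sided, the p of the first 3 was 0.0173, 0.0209 and 0.0334 by r and 0.0302, 0.0198 and 0.0537 by rho, and with Benjamini-Hochberg adjustment over the 10 relations computed it was 0.0697, 0.0697 and 0.0834 by r and 0.101, 0.0990 and 0.134 by rho. None passed. Without the 2 animals farthest from the median of the first tissue, cow 1 and cow 3 in each of these pairs, r was 0.381, 0.50 and 0.772. The first 2 values thus fell without these cows, and the third did not. Without bull 3, r was 0.738, 0.746 and 0.673. Over genes with a mean of at least 1 CPM in both tissues, the median r was 0.288, 0.192 and 0.132. Of these genes 3.40, 4.14 and 3.54% had an r at least as high as LYZ. Cow 1 ranked 1, 4, 2 and 1 of 10 in liver, fat, muscle and pituitary gland, and cow 3 ranked 2, 5, 1 and 2.

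The other 4 relations set LYZ against the summed macrophage markers of the same tissue. In muscle r was 0.754 (permutation p = 0.00866, adjusted p = 0.0697) and rho 0.830 (p = 0.00438, adjusted p = 0.0438), and r was 0.841 without the 2 farthest animals. In liver r was -0.214, in fat 0.336 and in pituitary gland 0.420, with adjusted p of 0.329 or more. The sexes were pooled in these values, and with 5 animals each no value within a sex was computed.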
